A study of Homo sapiens with 6 samples.

Results

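The nuclear subunits of the oxidative phosphorylation (OXPHOS) complexes were examined in A431CT and Dsg2KO cells. Members were chosen by gene symbol, as the rows named for subunits of complexes I to V on chromosomes 1 to 22 or X other than chromosome 21. This gave 79 of the 21462 genes in the table, of which 36 belonged to complex I, 4 to complex II, 8 to complex III, 15 to complex IV and 16 to complex V. The rule used symbols and chromosomes and no expression value, but it was set with earlier results of these data known. It left out 3 matching symbols on chromosome 21. NDUFA4 was counted in complex IV, where its protein resides. A431 is a human epidermoid carcinoma line. A431CT are the control cells, given as wild type in the labels, and Dsg2KO cells carry a CRISPR/Cas9 knockout of DSG2, which encodes the desmosomal cadherin Desmoglein-2. PolyA RNA of cultured cells was sequenced in 3 libraries per genotype with no further treatment named, and the sources used here do not give the number of clones behind the Dsg2KO cells. The comparison asks which transcripts differ after loss of Dsg2.

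Oxidative phosphorylation takes place in the inner mitochondrial membrane. Complex I and complex II pass electrons from NADH and succinate to ubiquinone, complex III passes them on to cytochrome c, and complex IV reduces oxygen with them. Complexes I, III and IV pump protons, and complex V, the ATP synthase, uses the gradient to make ATP. Apart from complex II, each complex combines nuclear subunits with subunits encoded by mitochondrial DNA (mtDNA), and many of the nuclear subunits are small accessory proteins around a catalytic core.

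The libraries held between 12845719 and 16255692 counts, and levels are given as CPM, counts divided by library size and edgeR's TMM factor. A floor of 3 counts corresponded to 0.184 to 0.236 CPM and covers counting error only. DSG2 itself lay at 330, 320.3 and 319 CPM in A431CT cells and at 50.9, 55.2 and 49.7 CPM in Dsg2KO cells (log2 fold change -2.64 ± 0.05 SE, adjusted p = 1.3e-14). Of 9 tested keratinocyte markers, 2 were higher and 3 lower in Dsg2KO cells (55.6% called, against 29.6% of all genes tested). The log2 fold changes of this list ran from -0.46 to 0.28. KRT5 was among the lower and had the smallest change of the called markers. It lay at 610 to 644 CPM in A431CT and 555 to 587 CPM in Dsg2KO cells (log2 fold change -0.13 ± 0.04 SE, adjusted p = 0.011). KRT14, not tested, had at most 2 counts in any library. The whole list of 10 keratinocyte markers summed to between 2684 and 2768 CPM in A431CT and between 2448 and 2498 CPM in Dsg2KO cells. Summed over the whole list of 7, fibroblast markers lay between 2.09 and 3.39 CPM in A431CT and between 1.92 and 4.29 CPM in Dsg2KO cells (1 tested, not called), with COL1A2 and PDGFRA at 0. The 7 leukocyte and endothelial markers, 2 of 3 tested being higher, summed to between 9.23 and 11.8 CPM in A431CT and between 15.8 and 16.33 CPM in Dsg2KO cells, led by the higher endothelial cadherin CDH5 (log2 fold change 0.76 ± 0.17 SE, adjusted p = 0.0035), with the lymphocyte marker CD3E at 0. Their part in the subunit results was not tested.

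Promoters are shown for 4 of the 5 subunits with the lowest log2 fold changes, a choice made by those values. The 130 bases before the RefSeq start site are given 5′ to 3′ (GRCh38.p14), at chr1:46303568-46303697 (plus strand), chr12:120437983-120438112 (plus strand), chr17:75046970-75047099 (minus strand) and chr19:35648193-35648322 (plus strand). Capitals mark CTTCCGG, the reverse complement of the ETS motif CCGGAAG, which is bound by factors such as GABP.

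UQCRH: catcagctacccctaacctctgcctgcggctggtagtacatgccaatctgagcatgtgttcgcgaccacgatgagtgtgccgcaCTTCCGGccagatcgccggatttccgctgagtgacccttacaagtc

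COX6A1: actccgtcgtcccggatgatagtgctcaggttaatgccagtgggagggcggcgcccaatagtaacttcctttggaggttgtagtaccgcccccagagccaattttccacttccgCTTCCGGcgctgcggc

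ATP5PD: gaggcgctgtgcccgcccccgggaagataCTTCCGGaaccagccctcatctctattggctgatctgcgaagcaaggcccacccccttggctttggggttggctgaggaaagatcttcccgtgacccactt

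COX6B1: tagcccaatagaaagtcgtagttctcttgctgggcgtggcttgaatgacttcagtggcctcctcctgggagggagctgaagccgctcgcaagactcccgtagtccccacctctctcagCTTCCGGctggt

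Counted back from the start site, the match spans bases -46 to -40 in UQCRH, -16 to -10 in COX6A1, -101 to -95 in ATP5PD and -12 to -6 in COX6B1. The fifth of these subunits, NDUFS5, had no entry in the promoter table. Over the 64 members with an entry (250 bases before to 50 after the start, both strands), 28.1% held the ETS motif, against 19.6% of 10146 tested genes and 10.7% of 27305 promoters. Of the 18 members that were lower in Dsg2KO cells and had an entry, 7 held it (38.9%), and of the 41 tested without a call 11 did (26.8%). Those 11 included SDHB, SDHD and COX5B, whose log2 fold changes were positive. The motif of NRF1, a factor known to regulate respiratory genes, was present in 16 of the 64 members, against 11.8% of tested genes and 6.28% of all promoters. It was in 16.7% of the members that were lower and 29.3% of those without a call. The motif of YY1, another such factor, was present in 6 members (9.38%), none of them lower, against 2.91% of tested genes and 1.28% of all promoters. ATP5PB, the member that was higher in Dsg2KO cells, held none of the 3 motifs in this window. These are matches of letters, no factor binding was measured, and a link between motif and fold change was not tested.

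Most subunits whose level differed between the genotypes were lower in Dsg2KO cells, by less than 40% in every case. Of the 79 members, 73 passed the low-count filter and were tested. With an adjusted p-value under 0.05, 25 were lower and 1 was higher in Dsg2KO cells, and 47 were not called. In the background of all 12857 tested genes, 29.6% were called, 15.3% lower and 14.3% higher. The median log2 fold change was -0.15 over the members and -0.00 over all genes tested, and 57 of the 73 members had a negative value. Relative to the A431CT mean, the members' median log2 difference was -0.00, 0.08 and -0.07 in A431CT replicates 1 to 3. It was -0.17, -0.10 and -0.16 in Dsg2KO replicates 1 to 3, and these medians did not overlap between the genotypes. The summed CPM of the tested members did overlap, at 6063, 6169 and 5822 in A431CT and 5573, 5828 and 5382 in Dsg2KO cells. Without overlap of their 3 and 3 libraries, 30 members were lower and 2 higher in Dsg2KO cells, where 42.6% of all genes tested did not overlap, 21.4% lower and 21.2% higher. The differences were small, with 49 members below 0.25 in absolute log2 fold change. In bulk RNA, a lower level in all cells and a lower level in some of them cannot be told apart.

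A log2 fold change of at least 0.5 in addition to the adjusted p-value was reached by 5 members, all lower, where 6.03% of all genes passed, 3.03% lower and 2.99% higher. These were COX6A1, NDUFS5, UQCRH, ATP5PD and COX6B1, small or accessory subunits of complexes IV, I, III, V and IV. COX6B1 lay at the limit, and the number was 3 with scaling by total counts only and 2 without A431CT replicate 2, COX6A1 and NDUFS5. Per kilobase of transcript, the mean level of tested members in A431CT cells ran from 3.65 CPM for NDUFA3 to 546 CPM for ATP5F1B with a median of 57.8, so the subunits differed far more from each other than between genotypes.

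**Figure D1:**
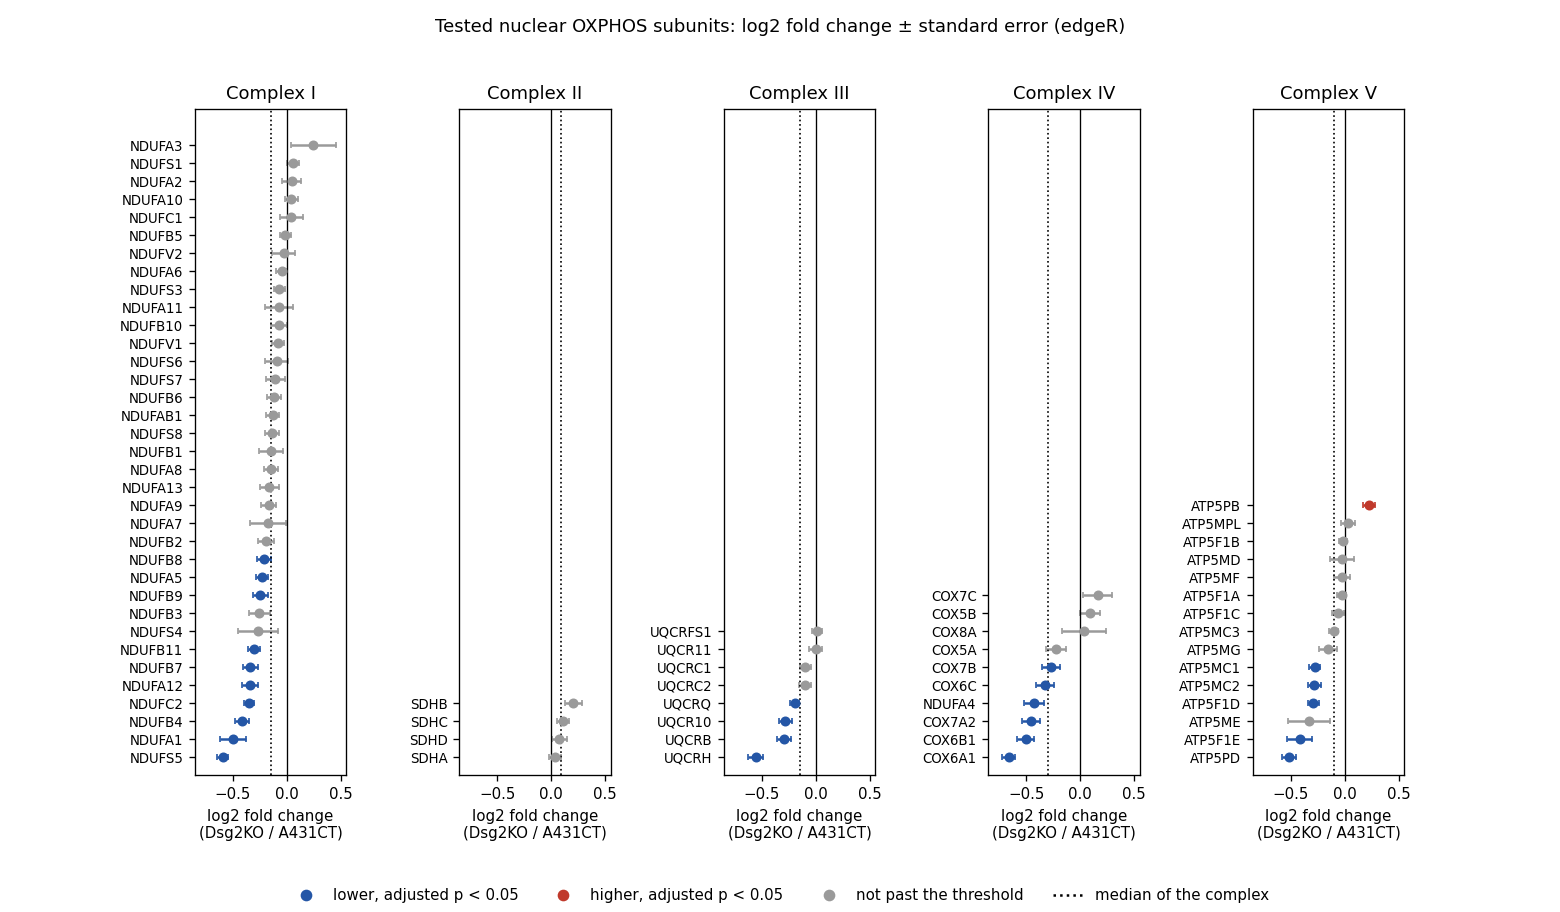
Log2 fold change (Dsg2KO over A431CT, x axis) of 72 of the 73 tested subunits, one panel per complex, with bars for the standard error from edgeR and a dotted line at the median of the complex. Subunits with an adjusted p-value under 0.05 are blue where lower (25) and red where higher (1), and complex II has no coloured point.

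In complex I, which oxidises NADH, 10 of 36 subunits were lower (27.8%) and none was higher. Of all genes tested, 15.3% were lower and 14.3% higher. The median log2 fold change of the complex was -0.15. The lowest was NDUFS5, an accessory subunit on the intermembrane side of the membrane arm, at 163, 159 and 152 CPM in A431CT cells and 107, 109.6 and 97.8 CPM in Dsg2KO cells. Every Dsg2KO library lay below every A431CT library, with a log2 fold change of -0.59 ± 0.05 SE (adjusted p = 6.1e-07). NDUFA1, a small membrane subunit needed for assembly, lay at 26.3, 36.3 and 24.9 CPM in A431CT and 19.4, 20.003 and 22.7 CPM in Dsg2KO cells. Its groups did not overlap, but A431CT replicate 2 stood above the other controls (log2 fold change -0.50 ± 0.12 SE, adjusted p = 0.0060). NDUFB4, of the distal membrane arm, lay at 58.0, 59.6 and 52.4 CPM against 43.2, 40.3 and 43.96 CPM in Dsg2KO cells (log2 fold change -0.42 ± 0.06 SE, adjusted p = 1.9e-04). NDUFC2, another membrane subunit, was among the tightest, at 99.5, 98.4 and 97.4 CPM against 81.1, 75.9 and 74.4 CPM (log2 fold change -0.35 ± 0.05 SE, adjusted p = 6.2e-05), and its exons overlap those of THRSP on the opposite strand.

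The parts of complex I differed in how many subunits were called. Of the 11 nuclear subunits of the distal membrane arm 5 were lower (NDUFB4, NDUFB7, NDUFB8, NDUFB9 and NDUFB11), with a median log2 fold change of -0.21. All 11 had negative values, and the calls of NDUFB8 and NDUFB9 were lost when A431CT replicate 2 or Dsg2KO replicate 1 was left out. With the transcript length trend described below taken off, NDUFB7, NDUFB8 and NDUFB9 had no call. In that fit NDUFB1 and NDUFB10 had positive log2 fold changes (0.09 and 0.06), and the others of this arm stayed negative. Of the 9 subunits of the proximal membrane arm 3 were lower (median -0.15). In the peripheral arm, which holds the flavin and the iron-sulfur clusters, 1 of 7 subunits of the NADH-binding module (NDUFA12) and 1 of 8 of the quinone module (NDUFA5) were lower, with medians of -0.08 and -0.14. Catalytic subunits among them were not called: the log2 fold change was -0.08 ± 0.05 SE for NDUFV1, which binds NADH (adjusted p = 0.29), and 0.06 ± 0.06 SE for the iron-sulfur subunit NDUFS1 (adjusted p = 0.51). The share lower was 45.5% in the distal and 33.3% in the proximal membrane arm. It was 14.3% in the NADH-binding and 12.5% in the quinone module, against 15.3% of all genes tested. No test of the difference between these modules was run. NDUFA3 had the highest fold change of the complex at the lowest level per kilobase, with 3.93, 3.54 and 2.87 CPM in A431CT and 4.23, 4.22 and 3.83 CPM in Dsg2KO cells, and did not pass the test (log2 fold change 0.25 ± 0.21 SE, adjusted p = 0.43). Its libraries overlapped, and its exons overlap those of TFPT on the opposite strand.

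In complex II, succinate dehydrogenase, no subunit was called and all 4 had positive log2 fold changes (49.1% of all genes did), with a median of 0.09. It is the complex without mtDNA-encoded subunits and also an enzyme of the citric acid cycle. SDHB, its iron-sulfur subunit, lay at 35.3, 31.2 and 33.1 CPM in A431CT and 41.3, 39.8 and 33.8 CPM in Dsg2KO cells. Replicate 3 of Dsg2KO fell within the control range, and the log2 fold change was 0.21 ± 0.08 SE (adjusted p = 0.071). SDHC, a membrane anchor, lay at 82.3, 81.4 and 73.0 CPM against 86.6, 86.6 and 82.5 CPM, with groups that barely separated (log2 fold change 0.11 ± 0.05 SE, adjusted p = 0.14). The flavoprotein SDHA and the second anchor SDHD overlapped between genotypes (log2 fold changes 0.03 ± 0.06 SE and 0.07 ± 0.07 SE, adjusted p = 0.70 and 0.48). A difference in direction between complex II and the other complexes was not tested.

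In complex III, the small subunits were lower and the core proteins were not called. UQCRH, the hinge protein that contacts cytochrome c1, lay at 112, 118 and 95.6 CPM in A431CT and 70.8, 75.2 and 75.9 CPM in Dsg2KO cells. The groups were well apart, with a log2 fold change of -0.56 ± 0.07 SE (adjusted p = 2.0e-05). UQCR10 lay at 51.2, 56.8 and 50.9 CPM against 42.7, 44.04 and 43.96 CPM (log2 fold change -0.28 ± 0.06 SE, adjusted p = 0.0027). UQCRQ showed a smaller and tight difference, from 137, 136 and 137 CPM to 122, 122 and 114 CPM (log2 fold change -0.20 ± 0.04 SE, adjusted p = 0.0028). UQCRB was lower by -0.29 ± 0.07 SE (adjusted p = 0.0039), so 4 of the 5 small subunits were lower, and UQCR11 was level (0.00 ± 0.06 SE, adjusted p = 0.99). None of the core and Rieske proteins was called: the core protein UQCRC1 had a log2 fold change of -0.09 ± 0.05 SE (adjusted p = 0.22) and the Rieske iron-sulfur protein UQCRFS1 one of 0.01 ± 0.05 SE (adjusted p = 0.86).

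Complex IV, cytochrome c oxidase, had the lowest median of the 5 complexes (-0.30) and 6 of its 10 tested subunits lower (60.0%, against 15.3% of all genes tested). The catalytic core is encoded by mtDNA, so the nuclear members are supernumerary subunits. COX6A1, the ubiquitous form of subunit VIa, had the lowest log2 fold change of all members. It lay at 73.7, 82.5 and 73.5 CPM in A431CT and 46.4, 50.4 and 48.3 CPM in Dsg2KO cells, a fall of 36.8% (log2 fold change -0.66 ± 0.06 SE, adjusted p = 1.5e-06). COX6B1, on the intermembrane side, lay at 55.4, 63.9 and 51.3 CPM against 38.9, 38.8 and 42.8 CPM (log2 fold change -0.50 ± 0.08 SE, adjusted p = 1.8e-04). Both separated the genotypes, as did COX7A2 at 38.2, 44.02 and 35.97 CPM against 26.7, 28.8 and 30.8 CPM (log2 fold change -0.45 ± 0.08 SE, adjusted p = 7.7e-04). NDUFA4, once assigned to complex I, lay at 24.6, 29.6 and 23.8 CPM against 18.3, 19.8 and 19.9 CPM (log2 fold change -0.43 ± 0.09 SE, adjusted p = 0.0028). COX6C (-0.32 ± 0.08 SE, adjusted p = 0.0096) and COX7B (-0.27 ± 0.08 SE, adjusted p = 0.022) were also lower, although COX7B lost its call with DESeq2 and when A431CT replicate 2 or Dsg2KO replicate 1 or 3 was omitted. The isoforms known from muscle (COX6A2, COX7A1) or testis (COX6B2, COX7B2, COX8C) failed the low-count filter, with at most 0.516 CPM in any library and COX6A2 at 0 in all of them, so the change was measured in the ubiquitous isoforms.

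For some subunits of complexes IV and I, a single library decided the call. COX8A lay at 102, 112 and 99.3 CPM in A431CT and at 77.4, 164 and 78.5 CPM in Dsg2KO cells, so Dsg2KO replicate 2 stood above all others while replicates 1 and 3 stood below them. Its log2 fold change was 0.03 ± 0.20 SE (adjusted p = 0.92) with all libraries and -0.42 (adjusted p = 2.8e-04) without Dsg2KO replicate 2. The complex I subunits NDUFA11 (43.7, 63.9 and 39.3 CPM) and NDUFS6 (59.6, 80.5 and 56.6 CPM) were also highest in Dsg2KO replicate 2, and without it both were lower in Dsg2KO cells (log2 fold changes -0.31 and -0.27, adjusted p = 0.013 and 0.023). COX7C lay at 68.2, 79.3 and 64.3 CPM in A431CT and 92.5, 89.0 and 56.3 CPM in Dsg2KO cells, and without the low Dsg2KO replicate 3 it was higher (log2 fold change 0.36, adjusted p = 0.0030). COX5B, with 92.5, 73.7 and 67.4 CPM against 85.8, 86.6 and 76.3 CPM, overlapped (log2 fold change 0.09 ± 0.09 SE, adjusted p = 0.49), and without A431CT replicate 1 it was higher (0.23, adjusted p = 0.025).

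In complex V, the ATP synthase, 5 of 15 tested subunits were lower and 1 was higher (median log2 fold change -0.10). The share called was 40.0%, against 29.6% of all genes tested. Both directions met in the peripheral stalk, which holds the catalytic head still and is represented here by 2 members, symbols on chromosome 21 being left out. ATP5PD (subunit d) lay at 76.0, 79.8 and 70.9 CPM in A431CT and 53.1, 56.5 and 49.3 CPM in Dsg2KO cells (log2 fold change -0.51 ± 0.06 SE, adjusted p = 2.3e-05). ATP5PB (subunit b) lay at 315, 316 and 309 CPM against 382, 388 and 329 CPM (log2 fold change 0.23 ± 0.05 SE, adjusted p = 0.0042). Neither gene's groups overlapped. In the F1 head, the central stalk subunits ATP5F1D (94.7, 93.3 and 92.7 CPM against 73.3, 82.5 and 73.8 CPM) and ATP5F1E (28.3, 36.6 and 29.6 CPM against 20.1, 27.96 and 22.8 CPM) were lower. Their log2 fold changes were -0.29 ± 0.05 SE (adjusted p = 7.8e-04) and -0.41 ± 0.12 SE (adjusted p = 0.014), and for ATP5F1E, whose exons overlap those of TUBB1 on the opposite strand, the adjusted p was 0.069 without A431CT replicate 2, 0.075 without Dsg2KO replicate 1 and 0.051 without Dsg2KO replicate 3. The third subunit of that stalk, ATP5F1C (γ), overlapped between genotypes at 112, 128 and 106 CPM against 109.5, 111 and 111 CPM (log2 fold change -0.06 ± 0.06 SE, adjusted p = 0.49). The α and β subunits that form the catalytic hexamer, ATP5F1A (301, 311 and 299 CPM against 293, 317 and 284 CPM) and ATP5F1B (1001, 907 and 973 CPM against 958, 964 and 927 CPM), overlapped between genotypes, with log2 fold changes of -0.03 ± 0.04 SE and -0.02 ± 0.04 SE (adjusted p = 0.68 and 0.78).

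The 3 genes of the c ring encode the same mature protein from separate loci, and all had lower means in Dsg2KO cells. ATP5MC1 lay at 82.8, 79.6 and 75.1 CPM in A431CT and 65.8, 66.4 and 64.0 CPM in Dsg2KO cells (log2 fold change -0.28 ± 0.05 SE, adjusted p = 9.1e-04). ATP5MC2 lay at 58.7, 62.3 and 55.7 CPM against 48.2, 50.8 and 46.4 CPM (log2 fold change -0.28 ± 0.06 SE, adjusted p = 0.0026). ATP5MC3, the most abundant of them by counts, lay at 186, 181 and 176 CPM against 168, 174 and 164 CPM and did not pass the test (log2 fold change -0.10 ± 0.04 SE, adjusted p = 0.076), although its groups did not overlap. The other membrane subunits held no call among 5 tested, and ATP5MGL was at 0 in all libraries. How reads shared with near-identical copies were assigned is not given in the sources used here, so values of subunit genes with processed pseudogenes are uncertain to that extent.

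**Figure D2:**
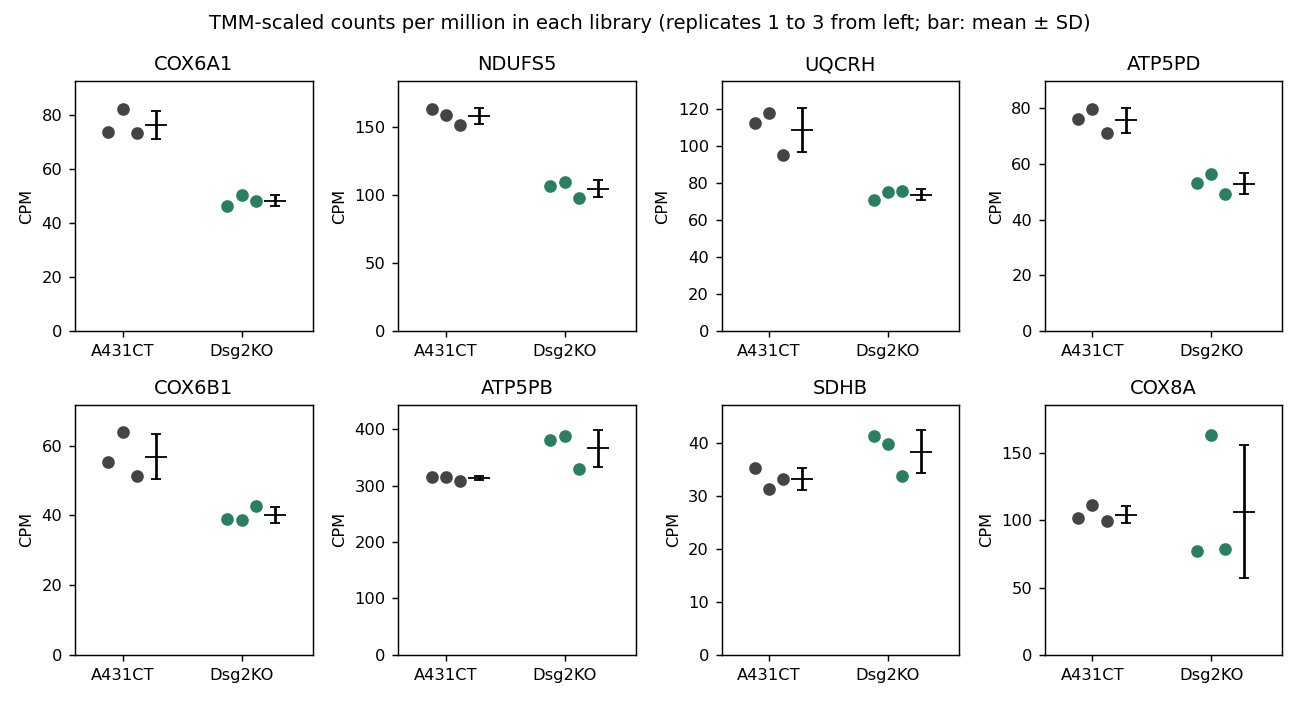
TMM-scaled CPM (y axis, from 0) of 8 subunits in each of the 6 libraries, as points with the mean and SD of each genotype beside them (n = 3 per genotype). The 5 subunits past both thresholds and ATP5PB separate the genotypes, SDHB overlaps in Dsg2KO replicate 3, and COX8A has 1 Dsg2KO library at 164 CPM above all others.

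Stretches of neighbouring genes shifted together in these cells, so each member was set beside the median log2 fold change of up to 25 tested genes on each side of it, other members left out. Of the 6 members in surroundings at or below -0.15, 5 were lower: NDUFS5 (neighbour median -0.29, at chr1:39026318-39034636), UQCRH (-0.25, chr1:46303698-46316776), NDUFA12 (-0.23, chr12:94895297-95003748), COX6A1 (-0.19, chr12:120438090-120440737) and ATP5F1E (-0.20, chr20:59025475-59032345). Each of these 5 had a lower log2 fold change than its neighbour median. SDHB was the sixth, with the lowest surroundings of all members (-0.32, chr1:17018664-17054032) and a positive value of its own. ATP5PB lay in raised surroundings (0.20, chr1:111448864-111462773), close to its own log2 fold change of 0.23. The other 66 members had neighbour medians between these limits, and of them 20 were lower and 0 higher, with a median log2 fold change of -0.13. Over the 73 members, the fold change and the neighbour median had a Pearson r of 0.42 and a Spearman rho of 0.33, a description across genes of the same libraries, which are not independent replicates. With the neighbour median taken off, the median of the members was -0.16 and that of complex II was -0.01.

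**Figure D3:**
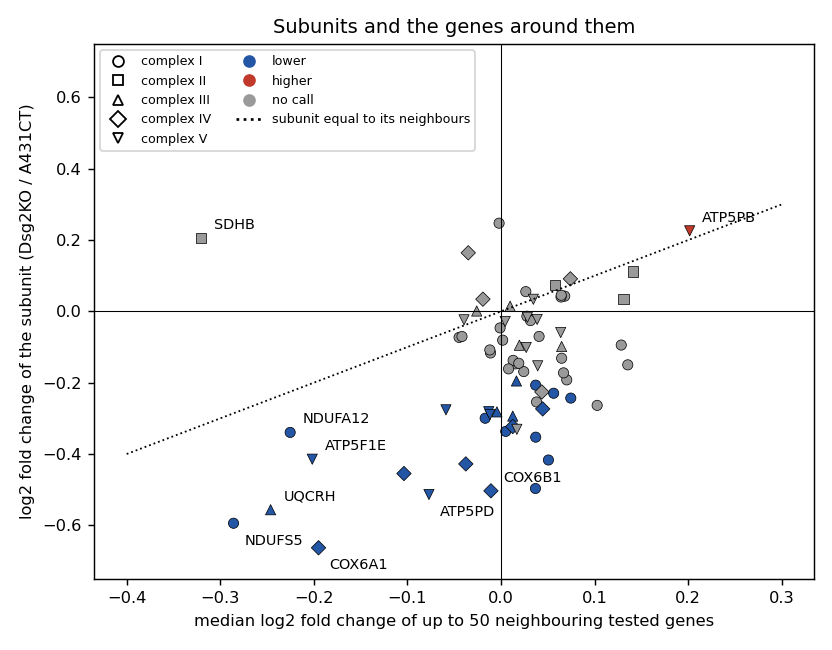
Log2 fold change of each tested subunit (y axis) against the median log2 fold change of up to 50 tested genes around it (x axis), by complex (symbol) and call (colour), with a dotted line where both are equal. ATP5PB lies near the line at 0.20, NDUFS5, UQCRH, NDUFA12, COX6A1 and ATP5F1E lie below it at the left, and SDHB stands apart at -0.32 with a positive value.

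Many of the subunits are encoded by short transcripts, and short transcripts were more often lower in Dsg2KO libraries among other genes too. The median length of the GENCODE canonical transcript was 758 bases in members and 3310 bases in the other 12338 tested genes that could be placed. Among 313 other genes of up to 750 bases, 29.7% were lower and 6.39% higher (median log2 fold change -0.12), while above 5000 bases 12.75% were lower and 19.9% higher (median 0.03). Of the 36 members of up to 750 bases, 16 (44.4%) were lower, with a median of -0.23. Among longer members, 2 of 16 up to 1500 bases and 4 of 9 up to 2500 bases were lower. So were 1 of 7 up to 5000 bases and 2 of 5 above that. By library, the median log2 difference from the A431CT mean in the short other genes was -0.00, 0.05 and -0.05 in A431CT and -0.13, -0.08 and -0.15 in Dsg2KO cells. In both sets A431CT replicate 2 was the highest control and Dsg2KO replicate 2 the highest knockout library. A fit with this length trend taken off in each library, an alternative added after the values were seen, gave 20 lower and 5 higher members (15.1% of all genes in either direction) and a members' median of -0.05. Of the 25 lower calls 19 remained, COX6C, NDUFB9, NDUFB8, ATP5MC2, NDUFA12 and NDUFB7 lost theirs, and NDUFA9 was added. The higher members were then ATP5PB, SDHB, SDHC, COX5B and ATP5MPL, an ATP synthase membrane subunit. COX6A1 alone passed both thresholds (log2 fold change -0.50), and complex IV kept the lowest median (-0.23). The part of transcript length, RNA quality or library preparation in the lower calls was not tested further, and the canonical transcript may not be the expressed one. It is long for UQCRB (8459 bases), NDUFA9 (8356), NDUFA5 (5496) and ATP5F1E (3610). Their log2 fold changes were lower with the trend taken off, so their calls in that fit depend on this length.

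**Figure D4:**
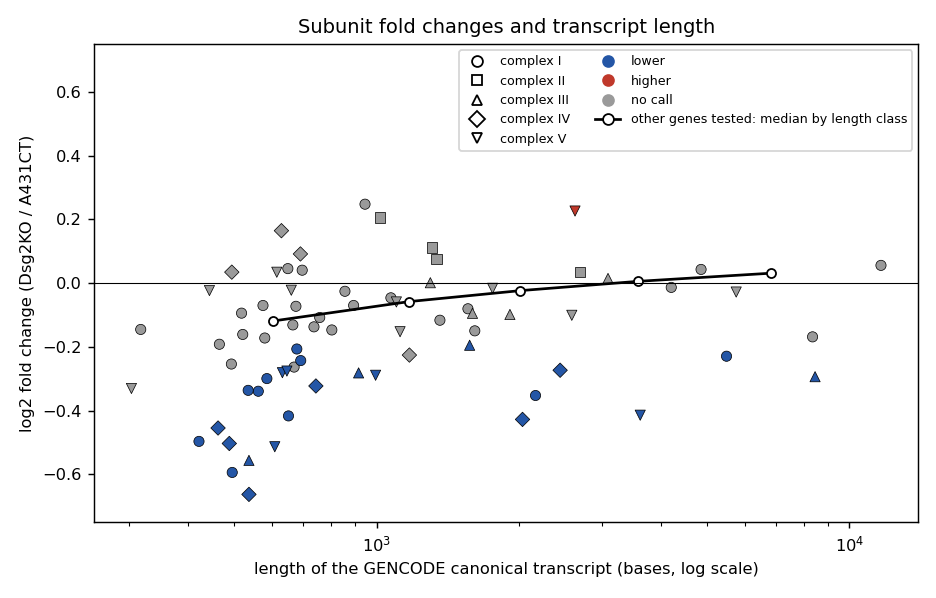
Log2 fold change of each tested subunit (y axis) against the length of its GENCODE canonical transcript (x axis, log scale), by complex (symbol) and call (colour), with a line through the medians of the other tested genes in 5 length classes. The line rises from -0.12 in the shortest class to 0.03 in the longest, and blue points lie below it at short and long lengths.

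Of the 13 mtDNA-encoded subunits, 1 was higher and 2 were lower (median log2 fold change -0.05), and 10 had negative values. Relative to the A431CT mean, their median log2 difference was 0.04, -0.09 and 0.05 in A431CT replicates 1 to 3. It was -0.16, -0.11 and 0.05 in Dsg2KO replicates 1 to 3, so these medians overlapped between the genotypes. The share called was 23.1%, against 29.6% of all genes tested. MT-CO3, of the complex IV core, lay at 1107, 1079 and 1108 CPM in A431CT and 1252, 1337 and 1489 CPM in Dsg2KO cells (log2 fold change 0.31 ± 0.05 SE, adjusted p = 1.8e-04). MT-CO1, the subunit with the oxygen-reducing site, was lower (-0.18 ± 0.05 SE, adjusted p = 0.0071), and so was MT-ND3 of complex I (-0.16 ± 0.04 SE, adjusted p = 0.012), so that MT-CO1 and MT-CO3 of complex IV went in opposite directions. The other 10 were not called. Their log2 fold changes were -0.14 for MT-ND1, -0.12 for MT-ND2, -0.06 for MT-ND4, 0.05 for MT-ND4L, -0.05 for MT-ND5, -0.02 for MT-ND6, -0.00 for MT-CYB, 0.06 for MT-CO2, -0.05 for MT-ATP6 and -0.10 for MT-ATP8. Counts of mitochondrial genes took 0.789% to 0.914% of each library, and their transcripts are processed apart from nuclear mRNA.

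Among 7 tested respiratory chain genes outside the symbol rule, 2 were higher and 2 lower (57.1% called, against 29.6% of all genes tested). COX4I1, subunit IV of cytochrome c oxidase, lay at 207, 179 and 211 CPM in A431CT and 237, 239 and 231 CPM in Dsg2KO cells (log2 fold change 0.24 ± 0.05 SE, adjusted p = 0.0026), against the direction of most complex IV members. ATP5IF1, the inhibitor of the ATP synthase, lay at 52.7, 62.9 and 54.5 CPM against 42.3, 47.6 and 40.9 CPM (log2 fold change -0.38 ± 0.08 SE, adjusted p = 0.0016). Of the supercomplex factors, HIGD1A was higher (0.15 ± 0.05 SE) and HIGD2A lower (-0.14 ± 0.05 SE, adjusted p = 0.044 for both). Cytochrome c (CYCS, 0.01) and cytochrome c1 (CYC1, -0.09) were not called.

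The assembly factors were called in both directions, as were all genes tested (14.3% higher and 15.3% lower). The share called was 27.8% for complex I and 12.5% for complex III, against 29.6% of all genes tested. It was also below that background for complex IV. For complexes II and V it was above the background, with only 4 and 5 factors tested. For complex I, 2 of 18 were higher and 3 lower (median log2 fold change -0.01), with NDUFAF5 at 0.55 ± 0.11 SE (adjusted p = 0.0020) and NDUFAF2 at -0.46 ± 0.13 SE (adjusted p = 0.015). For complex II 1 of 4 was higher (SDHAF3, 0.30) and 1 lower (SDHAF1, -0.27), and for complex III 1 of 8 was lower (UQCC1, -0.17). For complex IV 1 of 24 was higher (COX19, 0.22) and 5 were lower (median -0.11), among them the copper chaperone COX17, at 22.1, 26.0 and 19.4 CPM in A431CT and 15.6, 15.5 and 14.7 CPM in Dsg2KO cells (log2 fold change -0.56 ± 0.11 SE, adjusted p = 0.0010). For complex V 2 of 5 were lower (median -0.17), TMEM242 (-0.48 ± 0.09 SE, adjusted p = 0.0010) and ATPAF1 (-0.39 ± 0.05 SE, adjusted p = 4.3e-05), both needed to build the ATP synthase.

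Among 21 regulators of mitochondrial gene expression and biogenesis, 1 was higher and 3 lower, with a median log2 fold change of -0.01. Of these 19.0% were called, against 29.6% of all genes tested. The share was 28.6% in the citric acid cycle enzymes and 21.1% in the mitochondrial ribosomal proteins below. PPARGC1A, a coactivator of mitochondrial biogenesis, lay at 138, 142 and 146 CPM in A431CT and 110.2, 96.3 and 102 CPM in Dsg2KO cells, a difference well outside the spread of replicates (log2 fold change -0.46 ± 0.05 SE, adjusted p = 8.8e-06). ESRRA, a nuclear receptor that works with it, was lower by -0.16 ± 0.05 SE (adjusted p = 0.023), and TFB1M and POLG had log2 fold changes of -0.37 and 0.14. Of 14 citric acid cycle enzymes, 1 was higher (IDH3A, 0.26) and 3 were lower, with SUCLA2 at -0.40 and IDH3G at -0.24 (median -0.01). Of 76 mitochondrial ribosomal proteins, 5 were higher and 11 lower, with a median of -0.05, led by MRPL37 (-0.42) and MRPL20 (-0.47) in the lower and MRPL15 (0.29) and MRPL36 (0.20) in the higher direction.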

How the data were processed

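PolyA RNA of 3 A431CT and 3 Dsg2KO libraries was sequenced with paired-end reads. Per the labels and the paper's methods, the authors used CLC Genomics Workbench version 23 for trimming, alignment to GRCh38 and counting by gene. The deposited table holds raw counts per gene symbol, without normalization, and the annotation, strand setting and treatment of multi-mapping reads are not given in the sources used here. The labels do not say that the libraries came from separate cultures (the study calls them biological replicates), and p-values measure the spread between these libraries.

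Counts were analysed in R 4.3.3 with edgeR 4.0.16: filterByExpr (minimum count 10, minimum total count 15), TMM factors, quasi-likelihood F test without covariates, and Benjamini-Hochberg adjustment over all 12857 genes tested. A call is an adjusted p-value under 0.05, and the study's additional minimum of 0.5 in absolute log2 fold change gives the second count. The standard error is the absolute log2 fold change divided by the square root of F. Depth lay between 12845719 and 16255692 counts per library, and the biological coefficient of variation was 4.79%. Replicates of a genotype differed by more than counting error (chi-square of 2.64 to 4.14 per degree of freedom). The fit was tested on simulated data. The members and lists were chosen with earlier results of these data known.

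Named are DSG2, members past both thresholds, and in each complex the 3 higher and 3 lower with the smallest p and those with the largest and smallest fold change. The catalytic, c-ring and isoform subunits, members failing the filter and all mtDNA genes are named too. In each other list except the markers, the rule covers the called genes with the 2 smallest p-values per direction. NDUFA10, NDUFAF3, NDUFAF7 and COA7 fall under these rules but are not described. NDUFA1, NDUFA4, NDUFA12, NDUFA5, NDUFA9, NDUFA11, NDUFB1, NDUFB10, NDUFS6, ATP5F1C, COX6C, COX7B, CYCS, CYC1, TFB1M, other subunits named for a call or its change, and the markers were named after their values were seen.

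Symbols were placed with GENCODE version 44 (19745 of 21462, 254 of them by an older symbol; all 79 members). Promoters are RefSeq entries (GRCh38.p14), matched for 64 members. NDUFS5, SDHC, ATP5MC3, NDUFB5, NDUFA4, ATP5MF, UQCRB, COX6C, NDUFB9, NDUFC2, ATP5F1B, ATP5F1D, COX7A1 and ATP5MGL were among those with no entry. A member and a marker gene counted here are not reported individually. Exons overlapped a gene on the opposite strand in 6 members (NDUFC2, NDUFB6, NDUFA2, NDUFA3, ATP5F1E and ATP5MD).

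Alternatives were a looser filter (at least 1 count in any library) and a stricter (10 counts or more in all of them), total counts only, RLE size factors, DESeq2 1.42.0, a replicate block, each library left out, neighbour medians taken off (medians only), NDUFA4 placed in complex I (medians only) and, added after seeing the data, a length trend taken off per library (lowess span 0.3 on log2 CPM with a prior count of 2). Same-numbered replicates were checked for pairing, and their residual correlations of -0.00, 0.01 and 0.05 gave no pairs. Figures were drawn with Python 3.11.15 and matplotlib 3.10.9.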

Additional observations from a re-analysis of the deposited data

How the results depend on the processing

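The lower direction of the members' median and the direction of every call held under all alternatives that were run, and RLE size factors and a minimum of 10 counts in every library changed no member's call. The number of higher members was 2 with total counts only and with at least 1 count in any library, where SDHB joined ATP5PB, and 5 with the length trend taken off. The number past both thresholds was 3 with total counts only and 1 with the length trend taken off. With that trend taken off the median log2 fold change was -0.049 over all members and -0.021 over complex I, and with neighbour medians taken off it was -0.0066 over complex II. DESeq2 gave 1 higher, 23 lower and 4 past both thresholds, losing NDUFB8 and COX7B, and left 3681 adjusted p-values undefined.

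Leaving out each library in turn gave 1 to 3 higher members, 21 to 29 lower members and 2 to 7 past both thresholds, 2 being the number without A431CT replicate 2. The ranges of the medians were -0.17 to -0.11 for all members, -0.17 to -0.13 for complex I, 0.04 to 0.15 for complex II, -0.16 to -0.14 for complex III, -0.37 to -0.18 for complex IV and -0.12 to -0.08 for complex V. COX8A, at 0.03 with all libraries, ranged from -0.42 without Dsg2KO replicate 2, a reversal, to 0.22 without Dsg2KO replicate 1, and the cause was not tested. NDUFB8 lost its call without A431CT replicate 1 or 2 or Dsg2KO replicate 1 or 3, COX7B and ATP5F1E without A431CT replicate 2 or Dsg2KO replicate 1 or 3, and NDUFB9 without A431CT replicate 2 or Dsg2KO replicate 1.

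The replicate numbers were shared without pairing the samples. With a replicate block, 1 member was higher, 27 were lower and 5 passed both thresholds, and NDUFB3 and COX5A were added. Limits are 3 libraries per genotype from a line whose clone number is not given, a length trend and chromosome stretches that moved with genotype, and low counts in the muscle and testis isoforms, for which no difference was detectable at this depth.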
